A study of Mus musculus with 173 samples.

Results

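Synpr, Necab1, Marcks, Plk5, Il20rb, Angpt1, Muc15, Onecut2 and Mirt1 are 9 genes, of 38561 in the deposited tables, selected on their p-values, which are among the smallest when the cerebellum of Q175 mice is compared with that of wild-type mice. By that comparison they hold ranks between 2 and 58 of the 16020 cerebellar genes tested, and 49 of the 57 genes ranked ahead of Onecut2 are not among the 9. Their cerebellar Q175 and wild-type values are therefore given as a description, without a test. The tests concern the same genes in tissues that the choice did not use. The sex by genotype term was also fitted in all tissues, in cerebellum on the libraries that served to choose the genes.

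RNA with poly(A) tails was sequenced from 11 tissues of 16 mice. The 8 Q175 mice were C57BL/6 animals aged 6 months, heterozygous for a knock-in allele of the huntingtin gene Htt with a CAG length given as 175, and were housed with other Q175 heterozygotes. The 8 wild-type mice were of the same strain and age, and each genotype comprised 4 females and 4 males. The series describes the wild-type animals as littermates, but their labels place them in cages with heterozygotes of another line, Q20, and give them codes of that line. Genotype, housing and colony therefore cannot be told apart in any comparison. Each library comes from 1 mouse and the same mice gave the different tissues, with 8 Q175 and 8 wild-type libraries in each, except skin (6 wild-type) and gonadal white adipose tissue (7 wild-type).

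Huntingtin carrying an expanded CAG repeat causes Huntington's disease, in which neurons of the striatum and cortex degenerate first, and the cerebellum is regarded as less affected. Most cerebellar RNA comes from granule cells, small excitatory neurons that receive mossy fibres and contact Purkinje cells. Bulk tissue RNA mixes all cell types, so fewer cells of a type and less RNA per cell cannot be told apart.

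The 9 genes have unrelated products. Synpr (ENSMUSG00000056296, chromosome 14) encodes synaptoporin, a membrane protein of synaptic vesicles that is abundant in hippocampal mossy fibre terminals. Necab1 (ENSMUSG00000040536, chromosome 4) encodes a neuronal calcium-binding protein with EF-hands, and Marcks (ENSMUSG00000069662, chromosome 10) a membrane-associated substrate of protein kinase C that binds actin. Plk5 (ENSMUSG00000035486, chromosome 10) is the member of the polo-like kinase family that is expressed mainly in the nervous system. Il20rb (ENSMUSG00000044244, chromosome 9) encodes a chain of the receptors for cytokines of the interleukin-20 family, and Angpt1 (ENSMUSG00000022309, chromosome 15) encodes angiopoietin-1, a secreted ligand of the endothelial receptor Tek. Muc15 (ENSMUSG00000050808, chromosome 2) encodes a transmembrane mucin. Onecut2 (ENSMUSG00000045991) encodes a homeodomain transcription factor, and Mirt1 (ENSMUSG00000097636, chromosome 19) is a long non-coding RNA.

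Plk5, Il20rb and Mirt1 are the 3 that were lower in Q175 cerebellum, and the 250 bases before the annotated start of each are shown for that reason. The sequences are from RefSeq on build GRCm38.p6, given 5′ to 3′ on the strand of the gene. They lie at chr10:80356209-80356458 on the plus strand, chr9:100486474-100486723 on the minus strand and chr19:53464797-53465046 on the minus strand. Capitals mark matches, on either strand, to the GC box GGGCGG.
Plk5: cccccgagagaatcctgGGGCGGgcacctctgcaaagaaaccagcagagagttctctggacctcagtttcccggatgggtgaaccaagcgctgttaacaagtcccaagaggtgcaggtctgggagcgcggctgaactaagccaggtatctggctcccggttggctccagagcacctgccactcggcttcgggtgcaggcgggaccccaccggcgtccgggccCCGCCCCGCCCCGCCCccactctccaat
Il20rb: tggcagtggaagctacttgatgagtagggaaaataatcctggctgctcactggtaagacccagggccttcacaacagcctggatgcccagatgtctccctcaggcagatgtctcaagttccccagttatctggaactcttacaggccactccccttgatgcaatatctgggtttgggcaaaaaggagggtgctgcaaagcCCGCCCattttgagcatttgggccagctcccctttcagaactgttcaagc
Mirt1: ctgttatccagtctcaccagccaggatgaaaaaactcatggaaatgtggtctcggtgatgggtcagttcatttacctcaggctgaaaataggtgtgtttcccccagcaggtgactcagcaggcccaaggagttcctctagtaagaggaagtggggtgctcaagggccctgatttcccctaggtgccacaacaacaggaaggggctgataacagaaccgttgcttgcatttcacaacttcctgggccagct
The Plk5 window held 4 GC boxes, 3 of them overlapping within the last 28 bases before the start. The Il20rb window held 1 GC box, whose first base is 50 bases before the start, and the Mirt1 window held none. A GC box was present in 32.7% of the 32851 windows of this length in the table. The 4 other motifs searched had no match in the 3 windows: the ONECUT core ATCAAT (6.72% of all windows), the TATA box TATAAA (12.4%), the cAMP response element core TGACGT (6.47%) and the E-box CACGTG (6.02%). Such windows were searched for 4 of the 9 genes, the fourth being Synpr, with 2 annotated starts and 1 GC box before 1 of them. Onecut2 was left out of this search.

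Values are CPM, estimated counts scaled to library size (by TMM within a tissue), unless FPKM is named. Sums over cell type markers are CPM scaled to the library total alone, without TMM. A change is a log2 fold change, Q175 over wild type, with its standard error, from edgeR's quasi-likelihood test with sex as a term. P-values are adjusted (Benjamini-Hochberg) over all genes tested in that tissue, and a gene is called at an adjusted p under 0.05. The library totals lay between 27978166 and 48018644 estimated counts. In 17 of 173 libraries the counts fell with gene length by more than 0.1 log2 units per doubling, none of them from cerebellum, and 1 Q175 male had Abhd1, a gene higher in the other Q175 mice, at a level found in wild-type mice, in 11 of 11 tissues. Htt itself fell in Q175 cerebellum (-0.21 ± 0.04, adjusted p = 0.00182). Granule cell markers summed to at least 6050 CPM in every cerebellar library and to at most 1639.7 CPM in libraries of the other 4 brain regions.

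In cerebellum, 6 of the 9 genes were higher and 3 lower in Q175 mice, and for none of them did any of the 8 Q175 libraries overlap with any of the 8 wild-type libraries. Over all genes tested there, 16.1% were called, 1.94% did not overlap with Q175 higher and 1.74% did not overlap with Q175 lower. The choice of the genes rests on this contrast, so nothing is read from their count.

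Among the neuronal genes, Synpr ranged over 108, 122 and 130.0 CPM (lowest, median and highest library) in Q175 cerebellum, against 68.1, 73.2 and 77.5 CPM in wild-type cerebellum. Necab1 ranged over 50.6, 58.7 and 69.1 CPM in Q175, against 25.9, 28.5 and 34.2 CPM in wild type. Marcks ranged over 159.9, 172 and 182 CPM in Q175, against 95.6, 107 and 112 CPM in wild type. The lowest Q175 library lay above the highest wild-type library for each of the 3 genes, and the log2 fold changes were 0.73 for Synpr, 1.02 for Necab1 and 0.71 for Marcks. Plk5 ran the other way, with 39.1, 43.4 and 48.9 CPM in Q175 and 74.0, 80.2 and 91.8 CPM in wild type, a log2 fold change of -0.88.

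Of the receptor, ligand and mucin genes, Il20rb ranged over 41.5, 43.9 and 53.3 CPM in Q175, against 89.6, 99.5 and 116 CPM in wild type (log2 fold change -1.14). Angpt1 ranged over 20.9, 21.8 and 22.2 CPM in Q175, against 12.8, 14.3 and 15.5 CPM in wild type (log2 fold change 0.60). Muc15, at the lowest CPM of the 9, ranged over 3.55, 4.43 and 5.60 CPM in Q175, against 1.64, 1.996 and 2.29 CPM in wild type (log2 fold change 1.18). Angpt1 had the narrowest spread within Q175 cerebellum, with a coefficient of variation of 2.46% over the 8 libraries, and Muc15 the widest, 14.2%. The transcription factor Onecut2 ranged over 10.5, 12.9 and 14.8 CPM in Q175, against 4.54, 6.11 and 7.95 CPM in wild type (log2 fold change 1.03). The non-coding Mirt1 had 12.8, 15.2 and 19.3 CPM in Q175, against 31.7, 36.1 and 38.9 CPM in wild type, and a log2 fold change of -1.20. The standard errors of these 9 changes lay between 0.03 and 0.09.

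**Figure D1:**
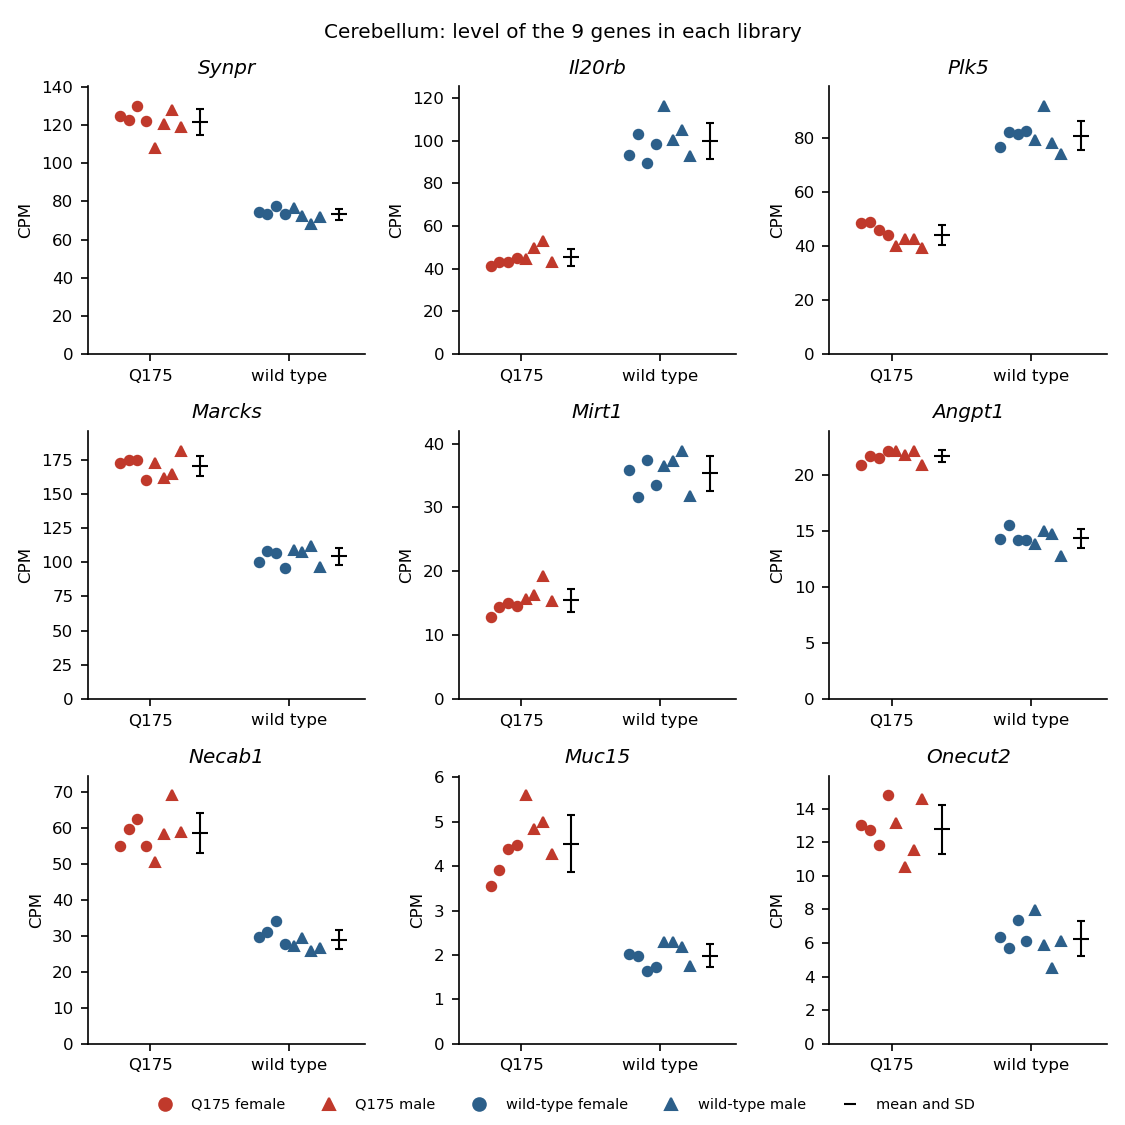
Cerebellar level of each gene (CPM, from 0) in the 8 Q175 libraries (left, red) and the 8 wild-type libraries (right, blue), with females as circles, males as triangles and the mean and SD beside each group. The groups do not overlap in any panel: 6 genes are higher and 3, Il20rb, Plk5 and Mirt1, lower in Q175 mice.

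No difference of the Q175 effect between the sexes was detected. The sex by genotype term of edgeR passed the threshold for 0 of the 9 genes in cerebellum, where it passed for 0% of all genes, and for 0 of the 70 gene and tissue pairs in all. In gonadal white adipose tissue it passed for 0.231% of all genes, and for 0% in each of the other 10 tissues. The cerebellar libraries served to choose the genes, by a fit in which unlike effects in the sexes add to the spread and raise p. The cerebellar terms therefore cannot show that the sexes responded alike. At an unadjusted p under 0.05 the term was found for 7 of the 70 pairs: 1 in cerebellum (3.34% of all genes there), 2 in hippocampus (21.7%), 1 in hypothalamus/thalamus (7.34%), 1 in gastrocnemius (5.41%) and 2 in skin (13.6%). Those in hippocampus were Synpr and Marcks, and the 2 libraries there whose counts fell with gene length were both from Q175 females. Those in skin were Il20rb and Angpt1, and the 2 such libraries were both from wild-type males. The part of these libraries in the terms was not tested. The cerebellar one was Plk5, which averaged 46.9 ± 2.24 CPM in Q175 females and 41.1 ± 1.76 CPM in Q175 males, against 80.6 ± 2.74 CPM in wild-type females and 80.7 ± 7.69 CPM in wild-type males (SD, n = 4 each).

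Some transcripts that mark cell types also differed between the cerebellar groups. The summed level of 10 granule cell markers lay between 6050 and 6460 CPM in Q175 libraries, against between 6628 and 7301 CPM in wild-type libraries, with 7 of 10 markers falling and 1 rising. Over all genes tested in cerebellum, 8.11% fell and 7.94% rose. The 8 oligodendrocyte and myelin markers lay, when summed, between 3191 and 4376 CPM in Q175, against between 4606 and 5572 CPM in wild type, and 8 of 8 fell. The 9 markers of brainstem and cerebellar nuclei neurons lay, when summed, between 91.6 and 122 CPM in Q175, against between 114 and 168 CPM in wild type, with 3 of the 5 tested falling. The 7 endothelial and mural cell markers lay, when summed, between 240.5 and 277 CPM in Q175, against between 271 and 287 CPM in wild type, with 4 of 7 falling. The 6 interneuron and Golgi cell markers lay, when summed, between 732 and 774 CPM in Q175, against between 805 and 857 CPM in wild type, without overlap, and 2 of 6 fell. The 8 astrocyte markers lay, when summed, between 3091 and 3226 CPM in Q175, against between 3212 and 3403 CPM in wild type, and 5 of 8 fell. Of the 10 Purkinje cell markers 2 fell. Each marker of these lists was above 0 in some cerebellar library. Their part in the cerebellar values was not tested.

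In hippocampus, 3 of the 8 genes tested were called, against 4.56% of all 16298 genes, and each had the cerebellar direction. Plk5 fell, with 8.97, 12.1 and 17.6 CPM (lowest, median and highest) in Q175 hippocampus and 18.8, 22.97 and 30.1 CPM in wild-type hippocampus. The 2 groups did not overlap, which held for 1.09% of all genes with Q175 lower, and the change was -0.98 ± 0.12 (adjusted p = 2.75e-04). The cerebellar value is -0.88. The hippocampal level in wild-type mice was 13.6 ± 2.50 FPKM against 46.6 ± 3.64 FPKM in wild-type cerebellum (SD, n = 8 each).

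Marcks rose in hippocampus, with 117, 121 and 172 CPM in Q175 and 99.9, 102 and 112 CPM in wild type. The groups did not overlap, as was the case for 0.43% of all genes with Q175 higher, and the change was 0.35 ± 0.07 (adjusted p = 0.00733). Its 2 highest Q175 values belong to the females 3 and 4, whose counts fell with gene length. Without them the change was 0.25 (adjusted p = 8.53e-04). Angpt1 also rose, with 5.40, 7.30 and 8.91 CPM in Q175 and 4.74, 5.27 and 6.59 CPM in wild type, a change of 0.42 ± 0.07 (adjusted p = 0.00298). In 7 of 8 Q175 libraries Angpt1 lay above the highest wild-type library, and the exception was Q175 female 3.

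Of the other genes in hippocampus, Onecut2 ranged over 9.95, 15.4 and 22.05 CPM in Q175, against 11.7, 12.6 and 14.6 CPM in wild type, and was not called (0.25 ± 0.13, adjusted p = 0.253). The groups overlapped: the 2 lowest Q175 libraries lay below all wild-type libraries and 5 lay above them. Onecut2 was called with the length trend removed (0.43, adjusted p = 0.00201) and without the Q175 females 3 and 4 (0.41, adjusted p = 0.00682). Il20rb had 2.57, 3.37 and 3.91 CPM in Q175 and 2.89, 4.14 and 4.85 CPM in wild type (-0.28 ± 0.11, adjusted p = 0.151). It was called, in the cerebellar direction, when wild-type female 1 was left out (-0.35, adjusted p = 0.0436). Synpr (0.05 ± 0.05, adjusted p = 0.504) and Necab1 (0.08 ± 0.08, adjusted p = 0.529), both at a higher FPKM in wild-type hippocampus than in wild-type cerebellum, showed overlapping groups. Mirt1 (-0.07 ± 0.11, adjusted p = 0.679) overlapped as well, and Muc15, at most 0.190 CPM in any hippocampal library, was not tested. The 8 hippocampal and forebrain excitatory neuron markers lay, when summed, between 4039 and 5216 CPM in Q175 hippocampus, against between 5458 and 6384 CPM in wild-type hippocampus, and 4 of 8 fell. Each of them was above 0 in some hippocampal library, and their part in these values was not tested.

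In brainstem, 1 of the 7 genes tested was called, against 3.07% of all 16563 genes. Angpt1 rose, with 8.25, 9.79 and 11.2 CPM in Q175 brainstem and 6.53, 7.07 and 8.54 CPM in wild-type brainstem (0.43 ± 0.07, adjusted p = 0.00196). In 7 of 8 Q175 libraries it lay above the highest wild-type library, and the exception was Q175 female 2. Il20rb had 0.131, 0.388 and 0.511 CPM in Q175 and 0.448, 0.548 and 0.765 CPM in wild type, a change of -0.56 ± 0.21 that was not called (adjusted p = 0.219). Onecut2 (0.22 ± 0.09, adjusted p = 0.281), Plk5 (-0.15 ± 0.11, adjusted p = 0.541), Necab1 (0.07 ± 0.08), Marcks (0.05 ± 0.07) and Synpr (-0.03 ± 0.06) were not called either. Mirt1 and Muc15 were too low to test. The 7 endothelial and mural cell markers were each above 0 in some brainstem library. When summed they lay between 286 and 374 CPM in Q175 brainstem, against between 325 and 373 CPM in wild-type brainstem. By edgeR 0 of 7 were called, and 2 had an unadjusted p under 0.05, as did 14.2% of all genes. Their sum in hippocampus lay between 199 and 270.3 CPM in Q175 mice, against between 239.8 and 267 CPM in wild-type mice. There edgeR again called 0 of 7, and 1 had an unadjusted p under 0.05, as did 21.7% of all genes. The 8 oligodendrocyte markers, each above 0 in some library, lay, when summed, between 13632 and 18505 CPM in Q175 brainstem, against between 17170 and 22925 CPM in wild-type brainstem, with 4 of 8 falling. Their part in the Angpt1 values was not tested.

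In hypothalamus/thalamus, edgeR called 0 of the 8 genes tested, against 0.574% of all genes, and DESeq2 also called 0. At an unadjusted p under 0.05, 3 passed, all with Q175 higher, against 13.7% of all genes. Marcks had 182, 198 and 241 CPM in Q175 and 143, 165 and 199.5 CPM in wild type (0.25 ± 0.08, adjusted p = 0.188). Angpt1 had 11.4, 13.05 and 14.1 CPM in Q175 and 10.2, 11.5 and 13.003 CPM in wild type (0.18 ± 0.06, adjusted p = 0.229). Both sets of groups overlapped. Plk5, which was lower in Q175 cerebellum and hippocampus, had 8.87, 10.1 and 11.3 CPM in Q175 and 7.24, 8.73 and 11.1 CPM in wild type (0.21 ± 0.08, adjusted p = 0.289). Necab1, at its highest level of the series in this region, overlapped between the groups, with 124, 216 and 285 CPM in Q175 and 166, 185 and 299.7 CPM in wild type (adjusted p = 0.991). The 8 oligodendrocyte markers lay, when summed, between 4883 and 6517 CPM in Q175, against between 6003 and 11085 CPM in wild type. Of these 4 of 8 fell, as did 2 of 8 astrocyte markers and 0.466% of all genes. The choroid plexus and ependymal markers summed to 4411 CPM in Q175 male 3, against a Q175 median of 66.1 CPM. The part of these markers was not tested.

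In corpus callosum, edgeR called 0 of the 8 genes tested, against 0.0544% of all genes, DESeq2 called 0, and 2 passed at an unadjusted p under 0.05, as did 19% of all genes. Mirt1 had 0.389, 1.39 and 2.37 CPM in Q175 and 1.09, 3.197 and 8.79 CPM in wild type (-1.35 ± 0.45, adjusted p = 0.219). Angpt1 had 8.58, 11.7 and 16.02 CPM in Q175 and 7.70, 9.33 and 11.7 CPM in wild type (0.31 ± 0.11, adjusted p = 0.219). The groups overlapped for both. Wild-type libraries alone spanned a wide range for Mirt1. The 8 forebrain excitatory neuron markers, with none at 0, lay, when summed, between 446 and 2007 CPM in Q175 callosum, against between 894 and 2715 CPM in wild-type callosum, and their part was not tested.

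**Figure D2:**
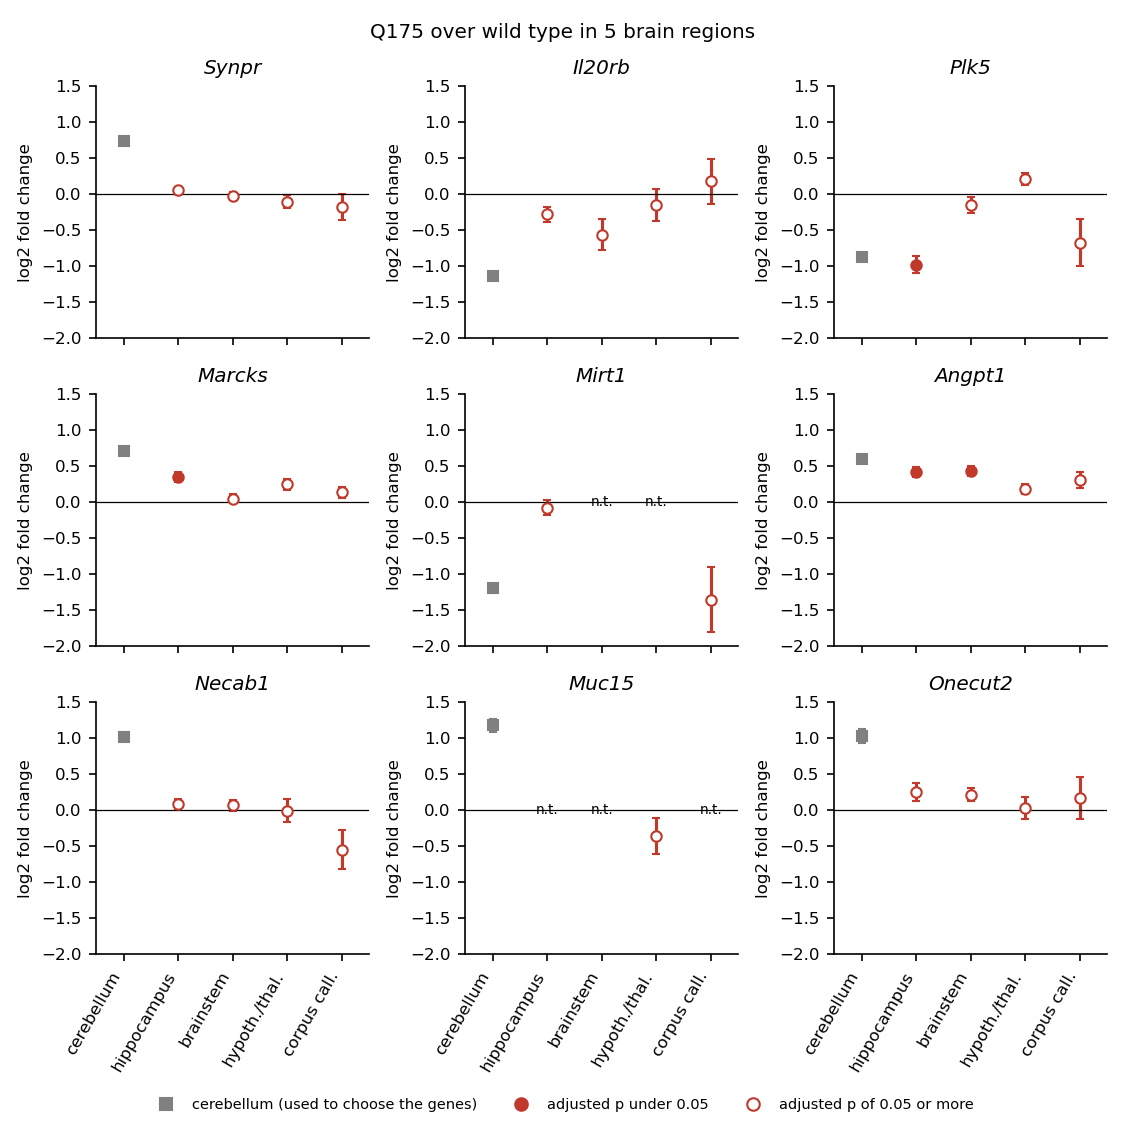
Log2 fold change of Q175 over wild type with its standard error for each gene in 5 brain regions. Grey squares are the cerebellar values that served to choose the genes, filled circles have an adjusted p under 0.05, open circles do not, and n.t. marks a gene too low to test. Plk5 in hippocampus (-0.98), Marcks in hippocampus (0.35) and Angpt1 in hippocampus (0.42) and brainstem (0.43) are the 4 filled circles.

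Whether the Q175 effect differed among hippocampus, brainstem, hypothalamus/thalamus and corpus callosum was tested on their 64 libraries with limma voom, with the correlation of libraries from 1 mouse estimated at 0.0909. The F-test over the 3 differences passed for 2 of the 9 genes, against 3.08% of the 17948 genes tested. Mirt1 was included although too low to test alone in brainstem and hypothalamus/thalamus, and Muc15 although too low in hippocampus, brainstem and corpus callosum. The results of Mirt1 and Muc15 therefore rest partly on very low levels. Plk5 passed (adjusted p = 3.60e-04), and its effect in hippocampus minus that in hypothalamus/thalamus was -1.18 ± 0.19 (adjusted p = 9.07e-04). Its effect in hypothalamus/thalamus minus that in corpus callosum was 0.87 ± 0.27 (adjusted p = 0.0497), and hippocampus minus brainstem, -0.80 ± 0.19, missed the threshold (adjusted p = 0.0538). Plk5 passed this F-test in each of the 4 alternative analyses. Mirt1 passed narrowly (adjusted p = 0.0424), but none of its 6 pairwise differences passed, the lowest adjusted p being 0.0623 for hippocampus minus corpus callosum (1.13 ± 0.33). It did not pass without the libraries whose counts fell with gene length (adjusted p = 0.0631), without a correlation within a mouse (0.0776) or on FPKM (0.0648).

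For the other 7 genes the F-test did not pass, with adjusted p between 0.144 for Marcks and 0.844 for Onecut2. Angpt1 was among them (adjusted p = 0.316), so its calls in 2 regions and not in the other 2 do not show that its effect differed between them. Its effect in hippocampus minus that in brainstem was -0.01 ± 0.12.

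**Figure D3:**
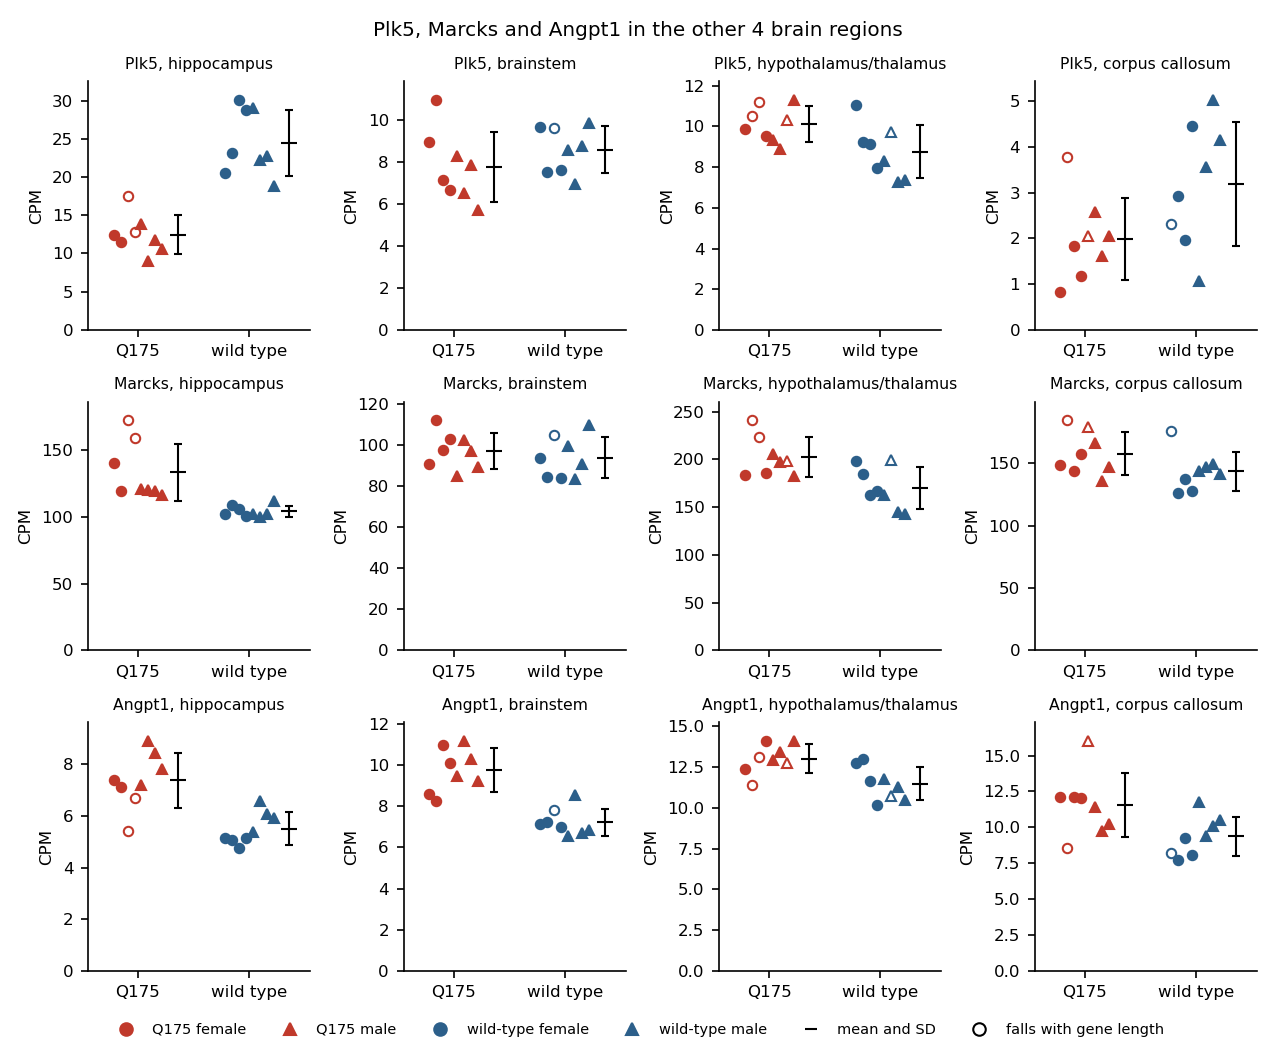
Level (CPM, from 0) of Plk5, Marcks and Angpt1 in 4 brain regions, with Q175 libraries left and wild-type libraries right, females as circles, males as triangles, and mean and SD beside each group. Open symbols are libraries whose counts fall with gene length. Plk5 separates the groups in hippocampus, where Q175 libraries lie at 8.97 to 17.6 CPM and wild-type libraries at 18.8 to 30.1 CPM, but not in the other 3 regions.

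Relatives of the 9 genes were counted from lists of their families, each without the gene itself. Of the 6 tested of 7 listed vesicle proteins related to Synpr, Syngr3, a synaptogyrin, rose in cerebellum (63.5 ± 3.65 CPM in Q175 and 55.9 ± 3.59 CPM in wild type, 0.18 ± 0.04, adjusted p = 0.00303). Sypl, a synaptophysin-like protein, rose in hippocampus (53.4 ± 2.46 CPM in Q175 and 47.7 ± 1.61 CPM in wild type, 0.16 ± 0.04, adjusted p = 0.0130). Of the 4 other polo-like kinases, Plk2, which is induced by neuronal activity, fell in hippocampus (168 ± 12.3 CPM in Q175 and 198 ± 5.01 CPM in wild type, -0.24 ± 0.04, adjusted p = 0.00331), and 0 were called in cerebellum.

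Of the 3 MARCKS-like and growth-associated membrane proteins, Gap43, an axonal growth protein, rose in cerebellum (121 ± 8.42 CPM in Q175 and 112 ± 5.06 CPM in wild type, 0.11 ± 0.03, adjusted p = 0.0345). Gap43 also rose in hippocampus (127 ± 17.8 CPM in Q175 and 102 ± 7.89 CPM in wild type, 0.31 ± 0.07, adjusted p = 0.0173). Of the 2 NECAB relatives, Necab2 fell in cerebellum, opposite to Necab1 (1.68 ± 0.242 CPM in Q175 and 2.84 ± 0.621 CPM in wild type, -0.75 ± 0.12, adjusted p = 1.28e-04; all SD, n = 8 each). By edgeR these were the 3 calls among the 20 relatives tested in cerebellum, where 16.1% of all genes were called, so that count is near the background. The other 3 calls were among 21 relatives tested in hippocampus, where 4.56% of all genes were called. In brainstem 0 of 24, in hypothalamus/thalamus 0 of 22 and in corpus callosum 0 of 20 were called, and 8 in each of these regions had an unadjusted p under 0.05. Of all genes, 14.2% in brainstem, 13.7% in hypothalamus/thalamus and 19% in corpus callosum had such a p. None of the 6 calls was among the other angiopoietins and Tie receptors, interleukin-20 receptor chains and ligands, transmembrane mucins or ONECUT factors. Of the 4 angiopoietins and Tie receptors 3 were tested in cerebellum. Few of the others could be tested there: 1 of 6 interleukin-20 genes, 1 of 6 mucins and 0 of 2 ONECUT factors.

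Of the 9 genes, 5 overlap a gene on the other strand, and the sources do not say whether the libraries keep strand. Muc15 overlaps Ano3, an ion channel family gene, which had 65.3 ± 4.35 CPM in Q175 cerebellum and 53.2 ± 4.04 CPM in wild-type cerebellum (SD, n = 8 each) and rose by 0.30 ± 0.03 (adjusted p = 5.74e-06). In hippocampus Ano3 was at 138 ± 16.6 CPM in Q175 and 177 ± 9.69 CPM in wild type, and fell by -0.36 ± 0.06 (adjusted p = 0.00398). Muc15 averaged at most 0.138 CPM there in any group of 1 sex and genotype. If the libraries do not keep strand, reads of the 2 genes cannot be told apart where they overlap, and the Muc15 values are uncertain to that extent. The partner of Angpt1, Gm17473, was far lower than Angpt1 in cerebellum, at 0.325 ± 0.0834 CPM in Q175 and 0.366 ± 0.0871 CPM in wild type. Gm11837, which overlaps Necab1, was likewise low there, at 0.615 ± 0.189 CPM in Q175 and 0.539 ± 0.0920 CPM in wild type (SD, n = 8 each). Levels of the other partners, Gm15913 for Synpr, Gm11844 for Necab1 and 4833407H14Rik for Mirt1, were not compared.

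Levels per length (FPKM) differed widely among the 11 tissues, and 5 of the 9 genes were highest in a brain region of wild-type mice. Synpr was highest in hippocampus (57.7 ± 1.91 FPKM), followed by cerebellum (28.9 ± 1.15), with no overlap between these 2, then hypothalamus/thalamus (25.6 ± 3.79), brainstem (15.9 ± 1.803) and corpus callosum (14.7 ± 3.43), each overlapping with the next. Outside the brain its mean was at most 0.144 FPKM. Necab1 was highest in hypothalamus/thalamus (40.5 ± 9.25 FPKM), without overlap with brainstem (14.6 ± 1.79). In wild-type mice cerebellum had the lowest mean Necab1 level of the 5 regions, 5.88 ± 0.557 FPKM, but its range overlapped with that of corpus callosum (9.77 ± 4.12). In Q175 cerebellum Necab1 stood at 11.9 ± 1.15 FPKM. Onecut2 stood at 0.943 ± 0.0677 FPKM in wild-type hippocampus and 0.466 ± 0.0781 FPKM in wild-type cerebellum.

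Plk5 and Mirt1, 2 of the 3 genes that were lower in Q175 cerebellum, had their highest mean wild-type level there. Plk5 declined without overlap from cerebellum (46.6 ± 3.64 FPKM) through hippocampus (13.6 ± 2.50) to hypothalamus/thalamus (4.88 ± 0.732), which overlapped with brainstem (4.80 ± 0.679). Mirt1 was at 12.8 ± 1.11 FPKM in wild-type cerebellum, 6.80 ± 3.97 in intestinal white adipose tissue, 2 ranges that overlap, and 3.57 ± 0.741 in hippocampus. The third, Il20rb, was at 84.6 ± 30.8 FPKM in skin and 44.2 ± 3.96 FPKM in cerebellum, 2 ranges that overlap, and at most 2.55 FPKM on average in the other 9 tissues.

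Marcks was abundant in most tissues, with wild-type means between 49.5 ± 11.1 FPKM in skin and 5.20 ± 0.990 FPKM in gastrocnemius. Angpt1 was highest in heart (11.1 ± 2.78 FPKM) and lowest in hippocampus (1.28 ± 0.142 FPKM), 2 ranges that do not overlap. Muc15 was highest in skin (12.3 ± 1.79 FPKM), with 0.595 ± 0.0744 FPKM in wild-type cerebellum as the next level, and it was listed at 0 in 7 of 7 wild-type gonadal adipose libraries (SDs over 8 libraries, 6 in skin).

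**Figure D4:**
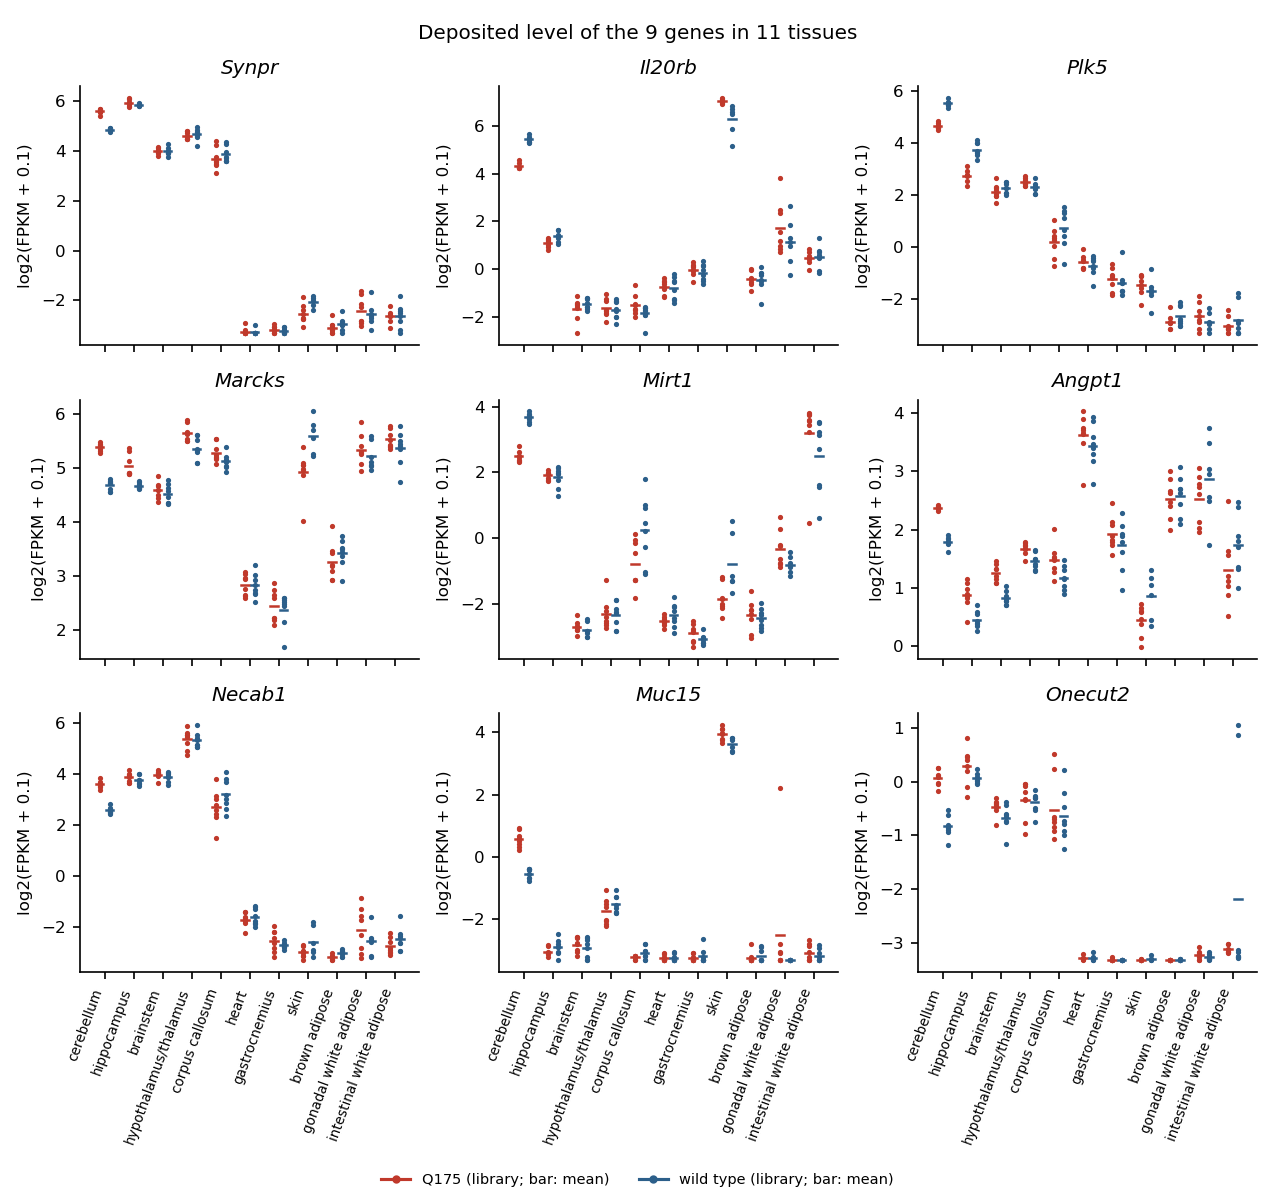
Deposited level of the 9 genes, as log2(FPKM + 0.1), in 11 tissues, with each library as a dot and the group mean as a bar, Q175 in red left of wild type in blue. Synpr, Necab1 and Onecut2 lie lower outside the 5 brain regions, apart from 2 wild-type intestinal adipose libraries with Onecut2, and Il20rb and Muc15 peak in skin.

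The genes whose wild-type means over the 11 tissues were most like each member, by Pearson's r of log2(FPKM + 0.1), were Actl6b (r = 0.997) and Gria2 (0.997) for Synpr, and Spats1 (0.997) and Fam169a (0.991) for Necab1. For Marcks they were Snhg12 (0.981) and Zfp688 (0.981), for Plk5 Fam135b (0.970) and Kif26b (0.969), and for Il20rb Prss52 (0.946) and Cdc42bpg (0.910). Angpt1 was most like Col8a1 (0.932) and Cox20 (0.912), and Muc15 most like Krt26 (0.986) and Cfc1 (0.981). Onecut2 was most like Slc30a10 (0.983) and Kcna3 (0.977), and Mirt1 most like Il16 (0.953) and Sla (0.899). All r are over n = 11 tissue means from the same mice.

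Outside the brain, skin held most of the calls: 4 of the 7 genes tested were called there, against 6.53% of all 16482 genes. Il20rb rose in skin, opposite to its cerebellar direction, with 283, 319 and 344 CPM in Q175 skin and 82.6, 222 and 264 CPM in wild-type skin (0.74 ± 0.19, adjusted p = 0.0410). The groups did not overlap, as was the case for 0.855% of all genes with Q175 higher. Muc15 rose as well, with 39.8, 49.7 and 59.8 CPM in Q175 and 33.5, 40.6 and 45.8 CPM in wild type (0.32 ± 0.08, adjusted p = 0.0334), and 5 of 8 Q175 libraries lay above the highest wild-type library.

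Marcks fell in skin, opposite to its brain direction, with 66.3, 129.5 and 168 CPM in Q175 and 153, 201 and 278 CPM in wild type (-0.69 ± 0.18, adjusted p = 0.0405). Mirt1 fell, with 0.250, 0.486 and 0.949 CPM in Q175 and 0.614, 0.850 and 3.74 CPM in wild type (-1.36 ± 0.36, adjusted p = 0.0407). The groups overlapped for both, and the 2 highest wild-type values of each belong to the males 1 and 2, whose counts fell with gene length. Without these 2 libraries Il20rb stayed called (0.40, adjusted p = 0.0117), while Marcks (-0.41, adjusted p = 0.149), Mirt1 (-0.60, adjusted p = 0.255) and Muc15 (0.32, adjusted p = 0.0554) did not pass. Angpt1 in skin had 3.86, 5.65 and 6.76 CPM in Q175 and 5.22, 7.91 and 10.4 CPM in wild type, with overlapping groups, and was not called (-0.47 ± 0.17, adjusted p = 0.1001). It was called without the same 2 libraries (-0.68, adjusted p = 0.0277), opposite to its direction in the brain. Without the Q175 male with wild-type Abhd1 levels 0 of the 4 passed, with adjusted p between 0.0582 and 0.0747. Leaving out 1 library at a time ended the call in 9 of 14 cases for Il20rb, 7 for Muc15, 10 for Marcks and 11 for Mirt1.

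**Figure D5:**
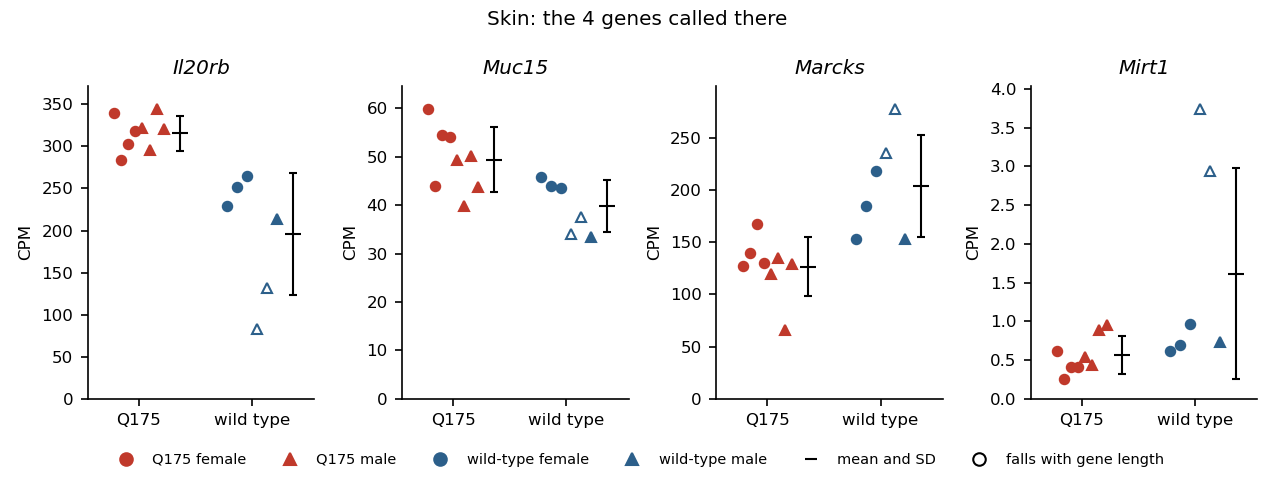
Level (CPM, from 0) of the 4 genes called in skin, with the 8 Q175 libraries left and the 6 wild-type libraries right, females as circles, males as triangles, and mean and SD beside each group. The 2 open wild-type symbols are males whose counts fall with gene length; they hold the 2 lowest Il20rb values and the 2 highest Marcks and Mirt1 values of wild-type skin.

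In gonadal white adipose tissue, 1 of the 5 genes tested was called, against 32.1% of all 16049 genes. Angpt1 had 16.2, 25.3 and 33.4 CPM in Q175 and 14.9, 34.2 and 57.2 CPM in wild type, and fell, with a change of -0.47 ± 0.16 (adjusted p = 0.0408). The groups overlapped, and the call was lost in 9 of 15 cases when 1 library was left out, with adjusted p up to 0.0839. Mirt1 was not called there, with 1.25, 1.82 and 3.47 CPM in Q175 and 1.11, 1.17 and 2.16 CPM in wild type (0.56 ± 0.24, adjusted p = 0.0899), but was without wild-type male 3 (0.69, adjusted p = 0.0374).

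In heart and gastrocnemius edgeR called 0 of 5 genes tested each, and in brown adipose and intestinal white adipose tissue 0 of 4 each. Over all genes it called 0.0549% in heart, 0.0213% in gastrocnemius, 5.41% in brown adipose and 0% in intestinal white adipose tissue. DESeq2 called 0 of the tested members in each of these 4 tissues, and 0 had an unadjusted p under 0.05, against 7.82% of all genes in heart, 6.3% in gastrocnemius, 17.2% in brown adipose and 7.77% in intestinal white adipose tissue. The Angpt1 groups overlapped in heart, where it was most abundant, with 28.8, 53.8 and 64.7 CPM in Q175 and 30.5, 46.8 and 64.5 CPM in wild type (0.15 ± 0.17, adjusted p = 0.894). Over the 10 tissues that the choice did not use, 9 of the 61 gene and tissue pairs tested were called. The calls were in hippocampus, brainstem, skin and gonadal white adipose tissue, where 4.56%, 3.07%, 6.53% and 32.1% of all genes were called. Those in skin and gonadal white adipose tissue did not hold in every alternative.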

How the data were processed

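The authors deposited an estimated count per gene and an FPKM value for each of 173 libraries of 38561 genes. The submitters' processing notes name CASAVA 1.8.2, without its role; aligner, counter, build and annotation: not given in the sources used here. Of the counts above 0, 31.4% were not whole (tolerance 1e-06), and all were rounded before testing.

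Each tissue was tested apart with edgeR 4.0.16 in R 4.3.3 (quasi-likelihood, robust, TMM, filterByExpr with its minimum count of 10, sex as a term), with Benjamini-Hochberg adjustment over all genes tested. Differences between brain regions were tested with limma 3.58.1 (voom, libraries of 1 mouse correlated). Alternatives were DESeq2 1.42.0, RLE scaling, no filter, no sex term, a replicate block, limma on log2(FPKM + 0.1) or log2(FPKM + 1), removal of the length trend, and leaving out libraries. The tests were checked on simulated data. Overlaps between genes were read from GENCODE M21.

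The 9 genes and all gene lists were chosen with earlier results of these data known. Named genes are the 9, Htt and Abhd1 as checks of the labels, the called members of the family lists, and the 2 genes most like each in level, among those reaching 0.5 FPKM in a tissue and with a median within 10-fold. The mice are separate animals, so the spread is between animals.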

Additional observations from a re-analysis of the deposited data

Results flagged for a closer look

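The difference of the Q175 effect among 4 brain regions passed for Plk5 (adjusted p = 3.60e-04) and Mirt1 (adjusted p = 0.0424). Mirt1 was too low to test alone in brainstem and hypothalamus/thalamus.

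In 14 of 140 groups of libraries, 1 library stood apart from the rest by Dixon's test at 95%; chance gives about 1 in 20 groups. In brain, Necab1 was at 61.0 CPM in brainstem of Q175 male 4 while the others of its group lay between 73.6 and 82.6 CPM. Onecut2 was at 6.04 CPM in brainstem of Q175 female 2 against 8.02 to 9.62 CPM. Il20rb was at 1.17 CPM in corpus callosum of Q175 male 1 against 0.253 to 0.447 CPM, in a library whose counts fall with gene length. Among wild-type libraries, Plk5 was at 91.8 CPM in cerebellum of male 2 against 74.0 to 82.3 CPM in the other wild-type libraries. Necab1 was at 299.7 CPM in hypothalamus/thalamus of female 4 against 166 to 225 CPM. Marcks was at 176 CPM in corpus callosum of female 1 against 126 to 149 CPM, and the counts of that library also fall with gene length.

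Outside the brain, 3 genes stood apart in intestinal white adipose tissue of Q175 male 2. There Il20rb was at 4.11 CPM against 1.73 to 2.72 CPM in the rest of its group, Mirt1 at 4.26 CPM against 27.5 to 38.8 CPM and Angpt1 at 27.8 CPM against 5.10 to 12.2 CPM. In gonadal white adipose tissue Il20rb was at 22.4 CPM in Q175 male 1 while the other Q175 libraries lay between 3.205 and 9.33 CPM. In the same tissue Mirt1 was at 2.16 CPM in wild-type male 3 against 1.11 to 1.41 CPM, and Necab1 at 1.31 CPM in wild-type female 2 against 0.0267 to 0.429 CPM. Mirt1 was at 0.682 CPM in brown adipose tissue of Q175 male 4 against 0.108 to 0.339 CPM, and Plk5 at 1.07 CPM in gastrocnemius of wild-type female 4 against 0.216 to 0.531 CPM.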

How the results depend on the processing

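The 4 calls in brain held in every alternative and with any 1 library left out. Over the alternatives Plk5 in hippocampus ranged between -1.06 and -0.92, Marcks between 0.25 and 0.41 and Angpt1 between 0.27 and 0.48, and Angpt1 in brainstem between 0.30 and 0.46. The highest adjusted p of these, 0.0408, was that of Marcks under the replicate block.

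In skin 4 genes were called. The count was 2 with no filter or FPKM + 1 (Il20rb and Muc15 each time), 2 without the libraries whose counts fall with gene length (Il20rb, and Angpt1 as a gained call), 1 with no sex term (Marcks), 0 under the replicate block and 0 without the Q175 male with wild-type Abhd1. With 1 library left out it ranged between 0 and 4. In gonadal white adipose tissue 1 gene was called, but 0 with no filter, no sex term, the replicate block, FPKM + 0.1, FPKM + 1, without the libraries that fall with length or without that male, and 0 to 2 with 1 library left out. In hypothalamus/thalamus the count of 0 ranged up to 1 with 1 library left out (Marcks, 0.29, adjusted p = 0.0499, without wild-type male 2). The count of 2 genes for the difference between brain regions was 1 without the libraries that fall with length, without the correlation within a mouse and on FPKM + 0.1. Of 1332 values not called, 76 changed sign and stayed uncalled.

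Over all genes, 743 were called in hippocampus, 409 under the replicate block and 1275 with DESeq2. Over the alternatives brainstem ranged between 282 and 723 (509), hypothalamus/thalamus between 12 and 332 (96), corpus callosum between 0 and 203 (9), skin between 0 and 2882 (1077), brown adipose tissue between 170 and 1384 (790), gonadal white adipose tissue between 2877 and 6172 (5148), heart between 3 and 83 (8), gastrocnemius between 0 and 12 (3) and intestinal white adipose tissue between 0 and 11 (0). Replicate numbers do not mark the same mouse. Deviations from the group means were correlated over genes between same-numbered Q175 and wild-type libraries. The median r lay between -0.127 in gonadal and 0.301 in intestinal white adipose tissue, where 6 of 8 pairs exceeded 0.1. In skin the median r was 0.0735. Whether the block carries a shared processing step was not tested.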

Other observations

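Transcripts of 2 of the 9 genes appeared in a few adipose libraries far above the others. Onecut2 was at 32.8 CPM in intestinal white adipose tissue of wild-type female 2 and at 27.2 CPM in that of wild-type male 4, against at most 0.296 CPM in the other 14 libraries, Q175 and wild type. Muc15 reached 12.8 CPM in 1 Q175 gonadal adipose library, where the median of the Q175 libraries was 0.0235 CPM and each of the 7 wild-type libraries was listed at 0. Both genes were too low in most libraries of these tissues to be tested there.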
